A study of Mus musculus with 6 samples.

Results

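Nuclear receptors are transcription factors that bind DNA through zinc fingers and carry a pocket for a small fat-soluble ligand such as a steroid, a retinoid, thyroid hormone or an oxysterol. The 46 genes described here were given by gene symbol as members of this family, by a rule that uses no measured value, and all 46 were found among the 24129 gene names of the table. RNA was sequenced from T1 and T2 cells, 3 replicates of each. Both populations came from a primary tumor that the GFP-tagged mouse mammary carcinoma line 4T1GFP had formed in BALB/c mice, and both had been sorted from tumor cells that overgrew a culture of sorted tumor fibroblasts. T1 cells, labelled 4T1A, had low GFP, were adherent and epithelial in shape, and were described as fast growing and aggressive in mice. T2 cells, labelled 4T1NA, had high GFP, were round and loosely attached, and were described as slow growing and less aggressive. Both were kept in DMEM/F-12 with serum, and T2 cells were passaged without trypsin, so attachment and handling cannot be told apart from the population. The labels name no added agent or ligand. The study's methods describe its experiments in general as run in biological replicates, but neither they nor the labels say how these RNA samples were kept separate, so p-values measure only the spread between them, part of which may be technical. Parental 4T1GFP cells were not analysed here.

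Receptors of this family either wait in the cytoplasm with heat shock proteins until a steroid arrives, or sit on DNA beside a retinoid X receptor partner and exchange corepressors for coactivators when their ligand binds. Others, among them the COUP factors Nr2f1 and Nr2f2 and the Nr4a genes, are orphans, set mainly by how much of them a cell makes. In breast tumors the family is best known for the estrogen and progesterone receptors, whose absence is part of the definition of triple negative disease, for which 4T1 is a model.

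Each library held 18133227 to 20839686 reads on genes, and 1 read was worth 0.928 to 1.06 normalized counts (read counts divided by a size factor per library). A limma fit to log2(normalized count + 1) set T1 against T2 in the 11514 genes whose mean reached 10 normalized counts. Of these genes 49.5% differed at an adjusted p-value under 0.01, and 8.37% also had a log2 fold change beyond 2 in either direction. Fold changes are T1 minus T2 on this scale, and a gene is called higher or lower only below that adjusted p-value. The epithelial markers summed to 76245 to 85350 normalized counts in T1 libraries and 37493 to 43418 in T2 libraries, with 6 of 8 higher in T1 cells and Krt8 and Krt18 not called. Markers of leukocytes, endothelium and adipocytes reached no more than 12.1 normalized counts for any single gene. Fibroblast markers were scarce but differed, with sums of 27.5 to 44.9 in T1 and 0.979 to 3.07 in T2 libraries. Of those 9 genes 4 had no read and only Col1a1 could be compared, which was higher in T1 cells with 14, 30 and 25 reads against 1, 0 and 0 (limma adjusted p-value 4.94e-05). The part of fibroblast RNA in the receptor values was not tested. These are bulk libraries, in which fewer cells making a transcript and less of it per cell cannot be told apart.

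Of the 46 receptor genes, 23 were abundant enough to be compared, 9 had a few reads and 14 had none in any library. Among the 23 compared, 3 were higher and 7 were lower in T1 than in T2 cells, together 43.5% of them beside 49.5% of all genes. Across the transcriptome, T1 cells had more of 25.1% of genes and less of 24.4%. The 3 higher in T1 cells were Nr2f2, Nr2f6 and the glucocorticoid receptor Nr3c1. The 7 lower were Nr2f1, Nr4a2, Esr2, Rara, Nr4a1, Ppard and Thra. Nr2f1 and Nr4a2 alone also passed the fold filter, 8.70% of the compared members beside 8.37% of all genes. Both were lower in T1 cells, as were 4.2% of all genes by the same filters. The share of receptors that differed was thus close to the share in the whole transcriptome. The median log2 fold change of the 23 was -0.22 beside -0.0055 for all genes, and their median absolute log2 fold change was 0.59 beside 0.45. T1 and T2 values did not overlap in 14 of the 23 genes (60.9%), beside 68.1% of all genes.

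**Figure D1:**
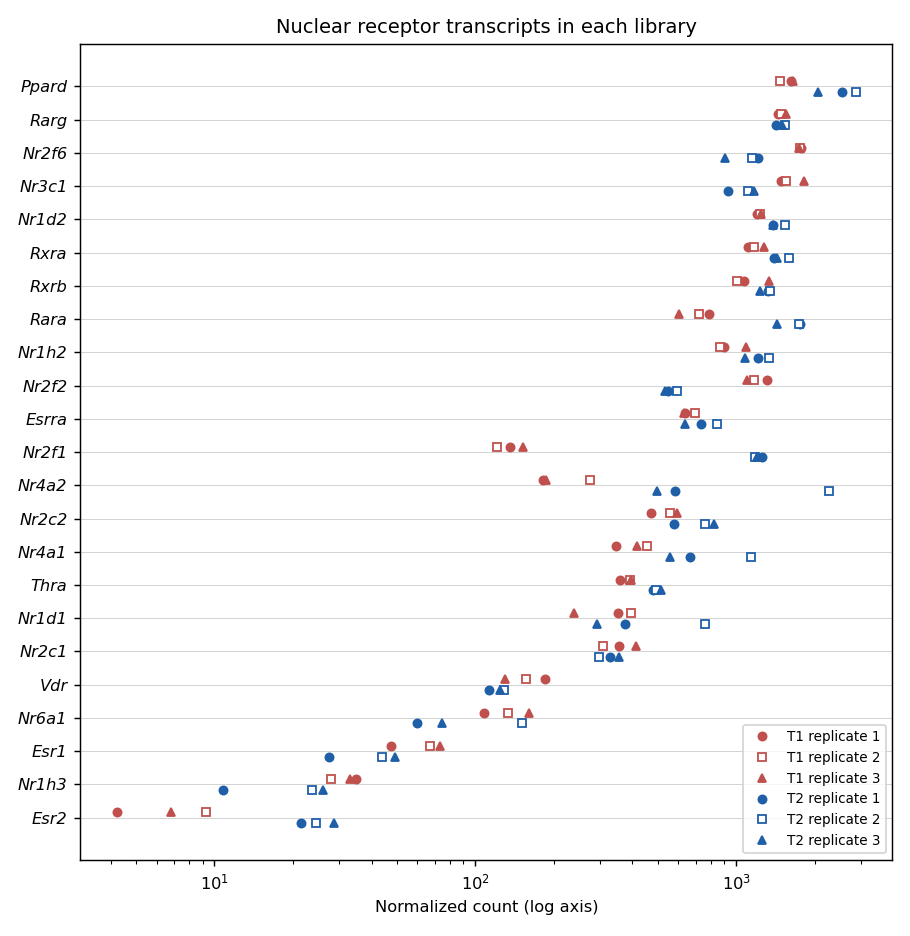
Normalized counts (log axis) of the 23 compared receptor genes, ordered by mean, with 1 symbol for each T1 (red) and T2 (blue) replicate. Nr2f1 sits between 121 and 152 in T1 and between 1184 and 1252 in T2 libraries, and T2 replicate 2 stands above the other T2 libraries at Nr4a2, Nr4a1, Nr1d1 and Nr6a1.

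**Figure D2:**
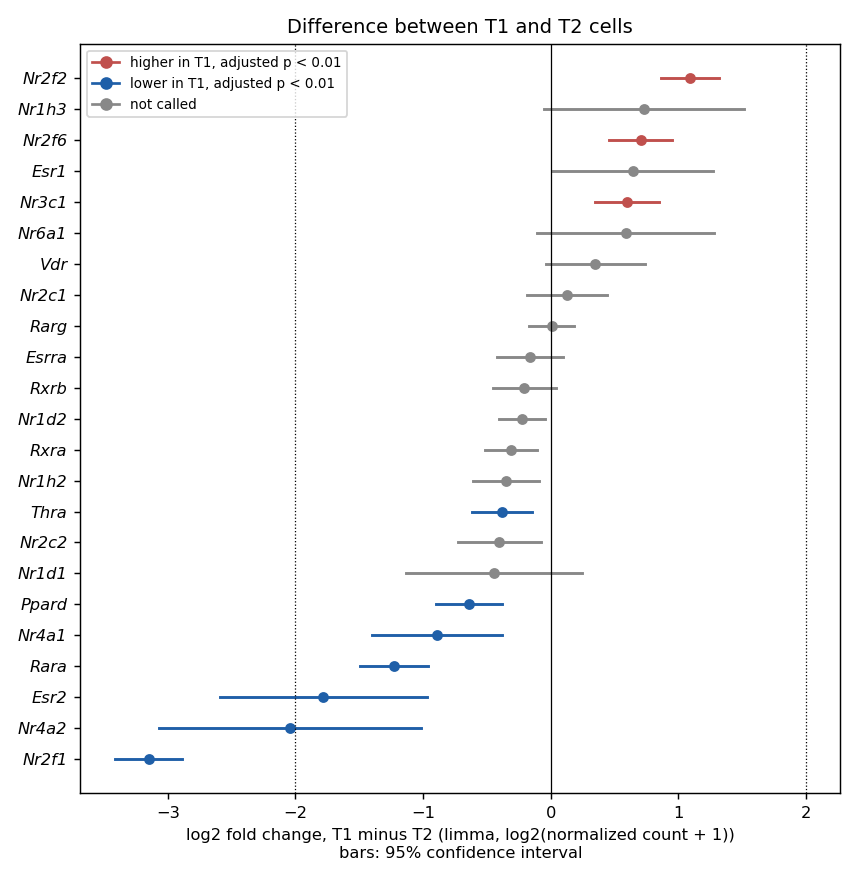
Log2 fold change (T1 minus T2) of the 23 compared receptor genes with its 95% confidence interval, coloured by call at an adjusted p-value under 0.01. Nr2f1 lies lowest at -3.15 and Nr2f2 highest at 1.09, and the dotted lines mark the fold filter at 2 in each direction.

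The orphan receptors of the COUP group differed in opposite directions. Nr2f1 (COUP-TFI, chr13:78188973-78199757 in mm10, minus strand), which is known from neural development and as a marker of dormant tumor cells, gave 135, 121 and 152 normalized counts in T1 replicates 1, 2 and 3 and 1252, 1184 and 1203 in those of T2. Every T2 library stood far above every T1 library, with a mean of 1213 ± 35.4 (SD, n = 3) against 136 ± 15.7 (SD, n = 3), an 8.91-fold higher level. The log2 fold change was -3.15 (SE 0.12, 95% interval -3.42 to -2.89, limma adjusted p-value 1.54e-08).

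Nr2f2 (COUP-TFII, chr7:70351944-70366735, minus strand), its closest paralog, known from vein and organ development, gave 1316, 1167 and 1096 normalized counts in T1 and 545, 595 and 533 in T2 cells. All T1 libraries were above all T2 libraries, and the mean was 2.14-fold higher in T1 cells with a log2 fold change of 1.09 (SE 0.10, limma adjusted p-value 7.41e-06). Per kilobase of exon, Nr2f2 was thus the more abundant of the pair in T1 cells (138 against 26.7 normalized counts per kb) and Nr2f1 in T2 cells (238 against 64.7). Nr2f6 (EAR2), the more distant member of the group and a repressor in lymphocytes, gave 1773, 1756 and 1736 in T1 and 1207, 1144 and 903 in T2 cells. The groups did not overlap, and its log2 fold change was 0.71 (SE 0.11, limma adjusted p-value 0.000277).

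Each of these genes shares exon sequence with a gene on the opposite strand, and the counting is not stated to have used strand. The antisense gene A830082K12Rik, which overlaps Nr2f1 over 123 bases, moved the same way at a much lower level, with means of 12.1 in T1 and 80.1 in T2 cells (log2 fold change -2.61, limma adjusted p-value 1.73e-05). The partner of Nr2f2, B130024G19Rik, had means of 0.31 and 1.61 normalized counts. Ocel1, which shares 1622 bases with Nr2f6, had means of 214 and 147 and was not called (log2 fold change 0.54, limma adjusted p-value 0.0102). The share of reads that these overlaps move between genes was not tested.

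The upstream windows of the COUP pair were read for their CpG content. In the RefSeq promoter table (build GRCm38.p6), the 250 bases before the more upstream of the 2 starts of Nr2f1 held 22 CpG pairs, an observed to expected ratio of 0.741, and those before its other start held 2, a ratio of 0.208. The single window of Nr2f2 held 1 CpG pair, a ratio of 0.0640. A ratio above 0.6 was found in the first listed window of 34.49% of all genes, in 13 of the 21 compared receptors with a window and in 5 of the 13 receptors that had a window and no read.

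The Nr4a genes are orphan receptors of the immediate-early class, induced within minutes by many signals that raise cyclic AMP, calcium or growth factor signalling. Nr4a2 (Nurr1, chr2:57106830-57124003, minus strand), best known for its part in dopamine neurons, gave 182, 274 and 186 normalized counts in T1 and 585, 2257 and 497 in T2 cells. Every T2 library was above every T1 library, but T2 replicate 2 was 4.17 times the mean of the other T2 libraries. The log2 fold change was -2.04 (SE 0.46, 95% interval -3.07 to -1.02, limma adjusted p-value 0.00303), and without T2 replicate 2 it was -1.35 (limma adjusted p-value 0.000444), no longer past the fold filter. The call was lost without T1 replicate 1 (limma adjusted p-value 0.0118) and without the variance trend (0.0205).

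Nr4a1 (Nur77, chr15:101254269-101274795, plus strand), known from T cell selection and apoptosis, gave 346, 455 and 418 normalized counts in T1 and 662, 1139 and 555 in T2 cells. The groups did not overlap and T2 replicate 2 was again the highest, at 1.87 times the mean of the other T2 libraries. The log2 fold change was -0.89 (SE 0.23, limma adjusted p-value 0.00644) with all libraries and -0.59 (limma adjusted p-value 0.0096) without T2 replicate 2. The call was lost without T1 replicate 1, T1 replicate 3 or T2 replicate 1 (limma adjusted p-values 0.0267, 0.0125 and 0.0143) and without the variance trend (0.0286). Nr4a3 (Nor1, chr4:48045153-48086447, plus strand) was too scarce to be compared. It had 3 reads in each T1 library and 5, 43 and 0 reads in the T2 libraries, so that 1 library held nearly all of them.

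T2 replicate 2 also stood apart at 2 receptors outside the Nr4a group. Nr1d1 (REV-ERB alpha), a heme-binding repressor of the circadian clock, gave 351, 395 and 238 normalized counts in T1 and 376, 758 and 293 in T2 cells. Nr6a1 (GCNF), known from germ cells and early embryos, gave 108, 133 and 160.1 in T1 and 59.7, 151 and 74.2 in T2 cells. For both the populations overlapped, Nr6a1 only through that library, and neither was called (log2 fold changes -0.44 and 0.59, limma adjusted p-values 0.234 and 0.125). Without it the log2 fold change of Nr1d1 was -0.05 and that of Nr6a1 was 0.98, which then passed the threshold (limma adjusted p-value 0.00572). Over all receptors 10 were called without that library, 4 higher and 6 lower in T1 cells, with Nr6a1 gained and Thra lost, and 1 (Nr2f1) passed the fold filter as well.

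Values above 1.5 times the other T2 libraries were not common in T2 replicate 2, at 3.36% of 11512 genes. Other immediate-early genes were looked up for this reason, after the Nr4a values had been seen, and in T2 replicate 2 all 12 were the highest of the T2 libraries, with a median ratio of 2.15 to the mean of the others. In T1 replicate 2, 11 of the 12 were the highest of the T1 libraries. Among all 11512 genes, replicate 2 was the highest T2 library in 3866 and the highest T1 library in 3333. Among the 23 compared receptors it was the highest T2 library in 13 and the highest T1 library in 5. Fos, an AP-1 subunit, gave 479, 4333 and 1106 normalized counts in T1 and 4518, 8535 and 6568 in T2 cells, with the highest value of each population in replicate 2. Of these 12 genes 7 were lower in T1 cells (5 past the fold filter, among them Egr3 at -5.11 and Egr2 at -2.87 on the log2 scale), none was higher, and 5 were not called.

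**Figure D3:**
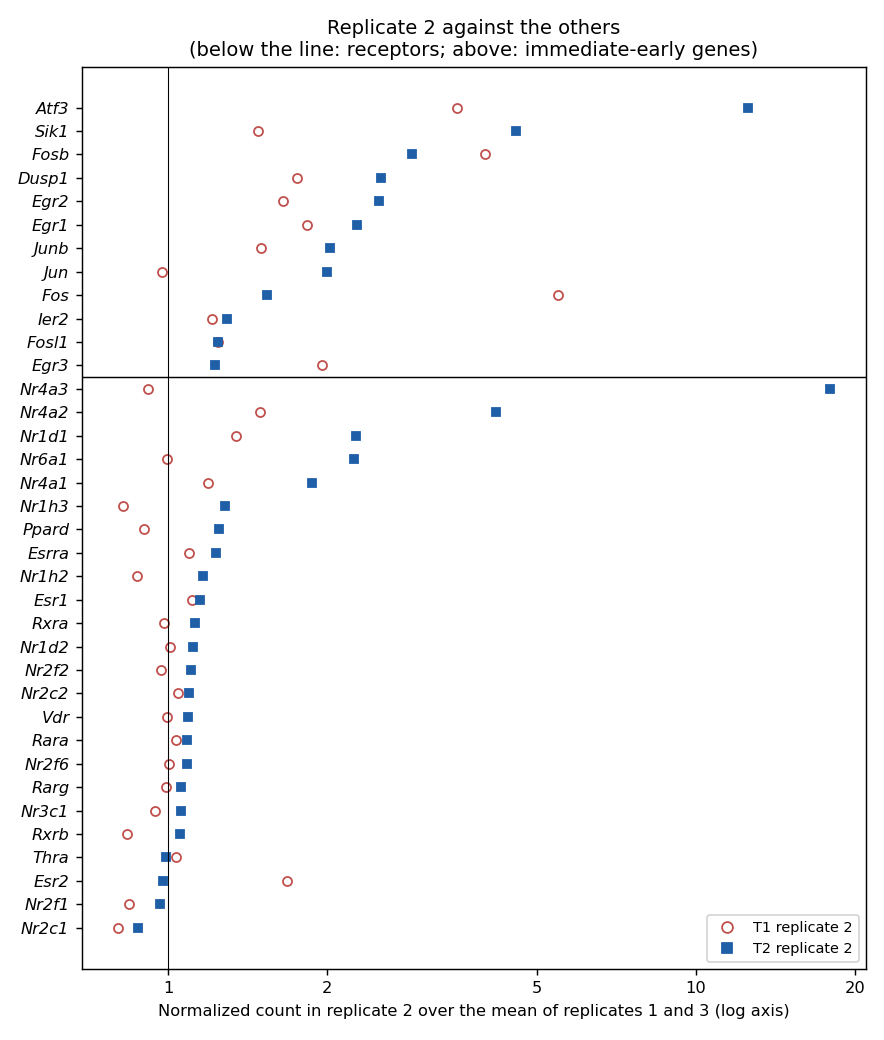
Normalized count in replicate 2 divided by the mean of replicates 1 and 3 (log axis), for T1 (open circles) and T2 (filled squares), in receptor genes below the line and immediate-early genes above it. Nr4a3 (18.0, on 43 reads) and Nr4a2 (4.17) lie farthest to the right among receptors, and all 12 immediate-early genes lie above 1 in T2 cells.

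The sequences before the RefSeq starts of the 3 Nr4a genes are shown because they share a feature that the gene list did not use. Each 250-base window before the RefSeq start (GRCm38.p6) held 4 copies of TGACG, the core of the cyclic AMP response element, counting both strands (CGTCA is its complement). Of all 32851 windows of this length 17.8% held at least 1 copy, 0.688% at least 3 and 0.137% (45 windows) at least 4. TGACG contains a CpG pair, and the Nr4a1, Nr4a2 and Nr4a3 windows had observed to expected CpG ratios of 1.05, 1.10 and 0.725. The median over the first listed windows of all genes was 0.378. How often windows of like composition hold 4 copies was not tested. The full element TGACGTCA, which contains TGACG, occurred in none of the 31 windows of compared receptors and in 1.55% of all windows. The sequences run 5′ to 3′ on the strand of the gene, with the copies in capitals. They are chr15:101266596-101266845 (plus strand) for Nr4a1, chr2:57124004-57124253 (minus strand) for Nr4a2 and, for Nr4a3, the first 98 bases of its window at chr4:48045055-48045152 (plus strand), which hold 3 of its 4 copies.
Nr4a1: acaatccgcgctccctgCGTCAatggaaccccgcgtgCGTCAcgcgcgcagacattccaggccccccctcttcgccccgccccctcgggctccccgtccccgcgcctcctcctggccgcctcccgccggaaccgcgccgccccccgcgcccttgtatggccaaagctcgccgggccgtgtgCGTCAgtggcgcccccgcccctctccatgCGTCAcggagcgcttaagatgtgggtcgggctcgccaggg
Nr4a2: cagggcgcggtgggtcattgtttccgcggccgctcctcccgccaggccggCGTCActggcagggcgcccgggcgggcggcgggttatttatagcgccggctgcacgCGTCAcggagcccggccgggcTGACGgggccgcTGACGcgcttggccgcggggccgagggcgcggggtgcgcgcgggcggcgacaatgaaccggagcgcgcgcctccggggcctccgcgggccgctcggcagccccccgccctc
Nr4a3: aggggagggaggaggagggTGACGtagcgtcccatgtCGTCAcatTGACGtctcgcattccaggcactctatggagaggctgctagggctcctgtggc
The copies began 233, 213, 69 and 40 bases before the start of Nr4a1 and 200, 144, 123 and 111 bases before that of Nr4a2. For Nr4a3 the distances were 231, 213, 205 and 147 bases, the last beyond the stretch printed. That stretch ends where the annotated Nr4a3 gene begins (48045153), so the last copy lies inside the annotated gene. The whole Nr4a1 window also lies inside the annotated span of its gene (101254269-101274795), before a start within it. A match of letters is a description of the window and not a sign that a factor was bound there.

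Among the retinoid receptors, which respond to vitamin A acid, Rara differed and Rarg did not pass the test. Rara gave 783, 717 and 603 normalized counts in T1 and 1756, 1732 and 1437 in T2 cells. The populations did not overlap, and T2 cells held 2.34 times the T1 mean (log2 fold change -1.23, SE 0.12, limma adjusted p-value 1.06e-05). Rarg gave 1440.1, 1482 and 1555 in T1 and 1418, 1540 and 1494 in T2 cells, a log2 fold change of 0.01 with a 95% interval of -0.17 to 0.18. Per kilobase, Rarg was 2nd in rank among the receptors of T1 cells and Rara 1st among those of T2 cells.

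Rarb, itself a well-known target of retinoic acid, had 3, 0 and 0 reads in T1 and 2, 1 and 1 in T2 cells. Of the shared partners, Rxra had values of 1108 to 1273 in T1 and 1394 to 1587 in T2 libraries, which did not overlap but missed the threshold (log2 fold change -0.31, limma adjusted p-value 0.0121). Rxrb overlapped, with 1002 to 1332 in T1 and 1229 to 1343 in T2 libraries (-0.21, limma adjusted p-value 0.134), and Rxrg had no read. Retinoid X receptor transcripts were therefore made mainly from Rxra and Rxrb in both populations.

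The genes that make, carry and remove retinoic acid were mostly silent. Of 13, 4 had no read and 7 a few, including the synthesizing enzymes Aldh1a1, Aldh1a2 and Aldh1a3 and the degrading enzymes Cyp26a1, Cyp26b1 and Cyp26c1. The 2 that were compared were both higher in T1 cells. Crabp2, which carries retinoic acid to its receptors, gave 30.7, 40.0 and 75.2 normalized counts in T1 and 0.979, 6.14 and 4.64 in T2 cells (log2 fold change 3.43, SE 0.53, limma adjusted p-value 0.000256). Rdh10, which oxidizes retinol to retinal, gave 832, 859 and 988 in T1 and 258, 295 and 267 in T2 cells (log2 fold change 1.70, limma adjusted p-value 7.24e-07). For both the T1 values lay above all T2 values, the opposite direction to Rara.

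The estrogen receptors were scarce in both populations, and the progesterone receptor Pgr had no read. Esr2, which encodes estrogen receptor beta, gave 4.23, 9.30 and 6.83 normalized counts in T1 and 21.5, 24.6 and 28.8 in T2 cells. The groups did not overlap, the T2 mean was 3.68 times that of T1, and the log2 fold change was -1.78 (SE 0.37, 95% interval -2.59 to -0.97, limma adjusted p-value 0.00167). Without T2 replicate 3 it missed the threshold (limma adjusted p-value 0.0108). Esr1, for estrogen receptor alpha, gave 47.6, 67.0 and 73.2 in T1 and 27.4, 44.0 and 49.2 in T2 cells. These values overlapped and the difference missed the threshold (log2 fold change 0.64, 95% interval 0.02 to 1.27, limma adjusted p-value 0.0683). Per kilobase of exon, Esr1 and Esr2 were the lowest of the compared receptors in each population, at 2.02 to 7.41 normalized counts per kb.

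Of 12 partners and classical targets of the estrogen and progesterone receptors, 7 could be compared, with 2 higher and 3 lower in T1 cells. Greb1, Tff1 and Tnfsf11 had no read. Foxa1, a pioneer factor of luminal cells, gave 86.8, 106 and 82.0 in T1 and 11.8, 34.8 and 23.2 in T2 cells (log2 fold change 2.05, limma adjusted p-value 0.000513). Car12, a carbonic anhydrase, was also higher in T1 cells (2.74), while Areg, an EGF receptor ligand, was lower (-2.35), all 3 past the fold filter. The luminal factor Gata3 and its companion Tfap2a were lower in T1 cells (-1.32 and -1.23), and the receptor kinase gene Erbb2 was not called (0.11). The members of this list thus did not move together, and its median log2 fold change was -0.45.

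The glucocorticoid receptor Nr3c1, which cortisol and corticosterone activate, gave 1481, 1553 and 1816 normalized counts in T1 and 933, 1108 and 1166 in T2 cells. All T1 values were above all T2 values, and the log2 fold change was 0.60 (SE 0.11, limma adjusted p-value 0.000922). The mineralocorticoid receptor Nr3c2 had 0, 2 and 3 reads in T1 and 4, 6 and 0 in T2 libraries.

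Of 8 compared genes known as glucocorticoid targets, none was higher and 3 were lower in T1 cells, the population with more Nr3c1. They were Errfi1, a brake on the EGF receptor (-1.13), Tsc22d3, the leucine zipper gene GILZ (-0.95), and the chaperone gene Fkbp5 (-0.79). Fkbp5 had values of 2142 to 2180 in T1 and 3704 to 3774 in T2 libraries, a gap far larger than its spread (limma adjusted p-value 3.74e-06). Klf9 had a log2 fold change of 1.02 that missed the threshold (limma adjusted p-value 0.0107). Hsd11b1, the enzyme that regenerates active glucocorticoid from its inert form, gave 6.35, 3.72 and 2.93 in T1 and 28.4, 43.0 and 26.0 in T2 cells (log2 fold change -2.67, limma adjusted p-value 0.000165). Its T2 values were all above its T1 values. Of the 6 chaperones and cochaperones that hold steroid receptors, 5 were higher in T1 cells, from Stip1 (0.55) and Hsp90ab1 (0.67) to Ptges3 (0.77), Hsp90aa1 (0.95) and Fkbp4 (0.99), and Hspa8 was not called.

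Thra, which encodes thyroid hormone receptor alpha, gave 359.8, 389.7 and 395 normalized counts in T1 and 479.8, 494 and 516 in T2 cells. The populations did not overlap, but the difference was small and near the threshold (log2 fold change -0.38, SE 0.11, limma adjusted p-value 0.00963), and the call was lost when any library but T1 replicate 3 was left out. Thrb had no read. The 3′ end of Thra overlaps that of Nr1d1 on the other strand over 263 bases, so reads there cannot be assigned without strand.

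The genes that supply thyroid hormone had larger fold changes than its receptor. Dio2, the deiodinase that activates the hormone inside cells, gave 13.8, 6.51 and 6.83 in T1 and 111, 268 and 163 in T2 cells, with no overlap (log2 fold change -4.16, SE 0.37, limma adjusted p-value 5.81e-06). Slc16a10, a transporter of aromatic amino acids and thyroid hormone, gave 30.7, 48.4 and 22.4 in T1 and 3.92, 4.09 and 2.78 in T2 cells (log2 fold change 2.87, limma adjusted p-value 0.000105). The transporter's values did not overlap either, and the pair moved in opposite directions. Of 20 genes for handling of these and other ligands found in the table, 6 were compared, 1 was higher (Slc16a10), 2 were lower (Dio2 and Hsd11b1) and 3 were not called.

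Ppard, the receptor for fatty acids found in most cells, was the only PPAR gene with more than 2 reads. It gave 1621, 1474 and 1651 normalized counts in T1 and 2531, 2863 and 2058 in T2 cells. The values did not overlap, and the log2 fold change was -0.64 (SE 0.12, limma adjusted p-value 0.000768). Pparg, the adipocyte receptor, had 1, 1 and 0 reads in the T2 libraries and none in those of T1, and Ppara had no read. Of 5 compared PPAR targets 2 were higher and 2 lower in T1 cells. Angptl4, a lipase inhibitor, gave 128, 126 and 62.5 in T1 and 11.8, 13.3 and 15.8 in T2 cells (log2 fold change 2.80, limma adjusted p-value 2.77e-05), and the lipid droplet gene Plin2 was higher as well (1.99). Cpt1a, which admits fatty acids to mitochondria for oxidation, was lower (-1.23), in the same direction as Ppard.

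The liver X receptors, which sense oxysterols, did not pass the test. Nr1h2 (LXR beta) had 865 to 1090.2 normalized counts in T1 and 1079 to 1334 in T2 libraries (log2 fold change -0.35, limma adjusted p-value 0.0231). Nr1h3 (LXR alpha) gave 34.9, 27.9 and 33.2 in T1 and 10.8, 23.5 and 26.0 in T2 cells, values that did not overlap (log2 fold change 0.73, limma adjusted p-value 0.095). Per kilobase, Nr1h2 was far above Nr1h3 in both populations (283 against 12.7 in T1 and 360.3 against 7.99 normalized counts per kb in T2).

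Of 8 compared genes known as LXR targets, 4 were higher in T1 cells, none was lower and 4 were not called, with a median log2 fold change of 0.82. Scd2, a fatty acid desaturase, was higher by 4.12 and its paralog Scd1 by 2.45 on the log2 scale, and Lpcat3, which remodels phospholipids, by 1.30. Abcg1, a sterol exporter, gave 15.9, 27.9 and 18.5 in T1 and no read in any T2 library, so that against a floor of 3 reads per library its T1 level was at least 7.09-fold higher. Srebf1 (0.28) and Apoe (0.03) were not called. Abca1 was too scarce to be compared and lay the other way, with no read in T1 and 2, 5 and 8 reads in T2 libraries. Against the same floor its T2 level was at least 1.63-fold higher.

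The vitamin D receptor Vdr had 130 to 185 normalized counts in T1 and 113 to 129 in T2 libraries. Its T1 values all lay above its T2 values, but narrowly, and the difference missed the threshold (log2 fold change 0.35, 95% interval -0.04 to 0.74, limma adjusted p-value 0.106). Its classical target Cyp24a1, the enzyme that degrades active vitamin D, had 0, 0 and 0.976 normalized counts in T1 and 111, 66.6 and 156 in T2 cells. A single read was thus counted over the T1 libraries, and the ratio of reads between T2 and T1 was 343 with a counting interval of 61.1 to 13568 (limma adjusted p-value 1.04e-06). The other vitamin D targets looked up, Trpv6, Calb1 and S100g, had few reads or none.

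Among the receptors of the circadian clock, Nr1d2 (REV-ERB beta), a repressor like Nr1d1, had 1202 to 1243 normalized counts in T1 and 1377 to 1539 in T2 libraries. Its values did not overlap but the difference missed the threshold (log2 fold change -0.22, limma adjusted p-value 0.0355). Rora and Rorb, activators that compete with these repressors, had no read.

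The clock genes that work with these receptors differed in both directions. Of 13 compared, 3 were higher and 6 were lower in T1 cells. The repressor Bhlhe40 gave 2108, 4013 and 4017 in T1 and 225, 514 and 214 in T2 cells (log2 fold change 3.47, SE 0.33, limma adjusted p-value 9.04e-06), with no overlap, and its paralog Bhlhe41 went the other way (-1.76). Nfil3, which competes with Dbp for the same sites, was higher (1.41), and so was Arntl (0.71), the activator that Nr1d1 represses. The period genes Per2 (-1.99) and Per3 (-1.79), the activators Dbp (-1.33) and Tef (-0.84), and Clock (-0.49) were lower. The time of harvest of each culture is not given in the sources used here.

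The other compared orphans did not pass the test. Esrra, a regulator of mitochondrial genes, had 631 to 696 normalized counts in T1 and 637 to 842 in T2 libraries (log2 fold change -0.16, limma adjusted p-value 0.255). The testicular receptor Nr2c1 had 308 to 414 in T1 and 298 to 354 in T2 libraries (log2 fold change 0.13, limma adjusted p-value 0.446). The testicular receptor Nr2c2 had 471 to 592 in T1 and 577 to 818 in T2 libraries (-0.40, limma adjusted p-value 0.0333). Nr2c2 shares 4657 exon bases with Mrps25 and another gene on the opposite strand. Over all 13 genes not called, adjusted p-values ranged from 0.0121 to 0.934, and 4 of them (Rxra, Nr1h2, Nr2c2 and Nr1d2) were under 0.05 in limma, each with lower values in T1 cells.

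The 14 genes with no read in any library were Pgr, Rxrg, Thrb, Ppara, Rora, Rorb, Nr1i2, Hnf4a, Hnf4g, Nr2e1, Nr2e3, Esrrg, Nr0b1 and Nr0b2. A count of 0 allows up to 3 reads in a library of this size, so these levels lie below detection at this depth and are not shown to be absent. Of the 9 genes with a few reads, Nr1h4 (FXR), the bile acid receptor, had the clearest split, with 6, 3 and 9 reads in T1 and 0, 1 and 0 in T2 libraries. Nr1i3 (CAR) had 3, 0 and 0 reads in T1 and 0, 2 and 0 in T2, and shares 3304 exon bases with Tomm40l. Esrrb had 0, 1 and 1 reads in T1, Nr5a1 had 1, 0 and 0 in T1, and Nr5a2 had 2, 0 and 1 in T2 libraries, with none in the other population.

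Between-gene levels were compared as normalized counts per kilobase of annotated exon. In T1 cells Nr2f6 was highest at 588 per kb, followed by Rarg (350.3), Rxrb (285), Nr1h2 (283), Nr1d2 (227), Rxra (217), Ppard (211) and Nr3c1 (210.4). In T2 cells the order began with Rara (376), Nr2f6 (364), Nr1h2 (360.3), Rarg (348), Ppard (331) and Rxrb (327). Neighbours in this order often did not differ beyond their spread, since the ranges of libraries overlapped in 14 of 22 neighbouring pairs in T1 and 15 of 22 in T2 cells. In T1 cells Nr2f6 stood clear of Rarg and Rarg clear of Rxrb. In T2 cells the ranges of the first 9 genes overlapped from each to the next. Nr2f1 moved from 19th of 23 in T1 to 10th in T2 cells, and Nr2f2 from 11th to 17th.

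**Figure D4:**
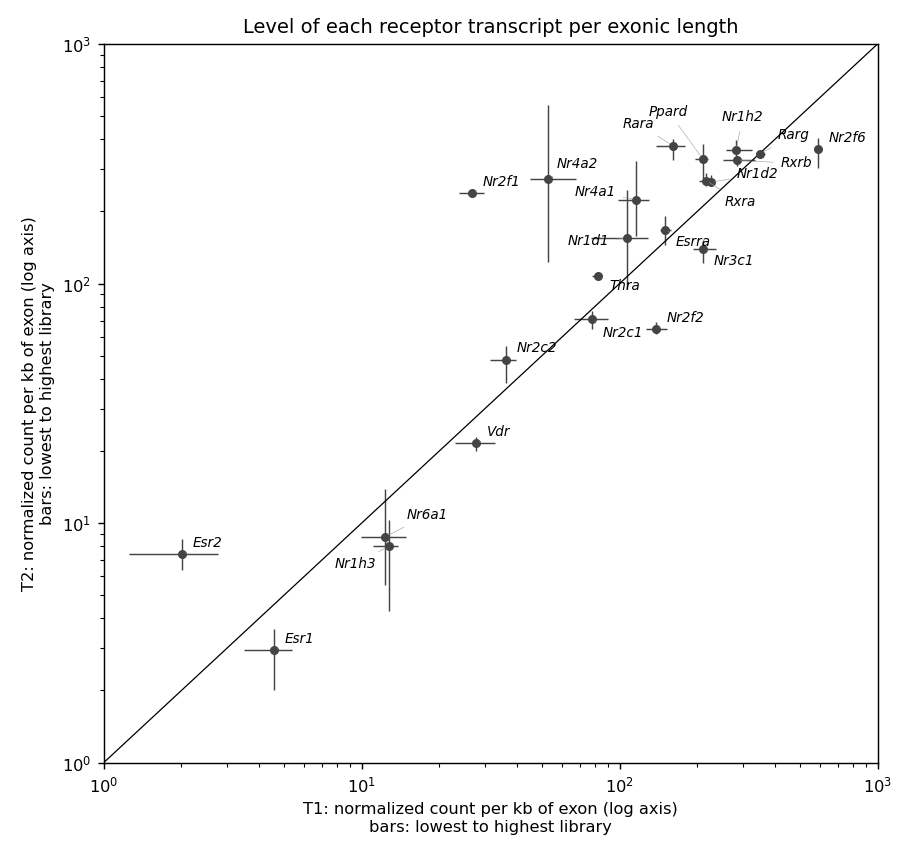
Mean level of each compared receptor gene in T1 (horizontal) and T2 (vertical), in normalized counts per kb of exon on log axes, with bars from the lowest to the highest library and a line of equal level. Nr2f1, Nr4a2 and Esr2 lie farthest above the line and Nr2f2 farthest below it, and most genes lie close to it.

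Receptors act through cofactors that open or close chromatin at their target genes. Of 11 compared coactivators 3 were higher in T1 cells and none was lower. They were Ppargc1b, a coactivator for mitochondrial genes, at 184, 166 and 189 against 62.7, 106 and 52.9 normalized counts (log2 fold change 1.33), its relative Pprc1 (0.80) and the arginine methyltransferase Carm1 (0.33). Of 9 corepressors 4 were lower in T1 cells and 1 was higher. Nrip1 (RIP140), which binds receptors that carry their ligand, gave 427, 439 and 437 in T1 and 1005, 1500.0 and 1469 in T2 cells (log2 fold change -1.58, limma adjusted p-value 7.01e-06), and its populations did not overlap. Tbl1xr1 and Gps2, which sit in the same histone deacetylase complex, were lower by smaller amounts (-0.61 and -0.37), and the demethylase Kdm1a was higher (0.43). Over the 75 compared genes of all these lists 44 were called, 23 higher and 21 lower in T1 cells. Of all genes compared 49.5% were called, 25.1% higher and 24.4% lower in T1 cells. The counts of each list given above are to be read beside these shares, and no list was tested as a set.

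**Figure D5:**
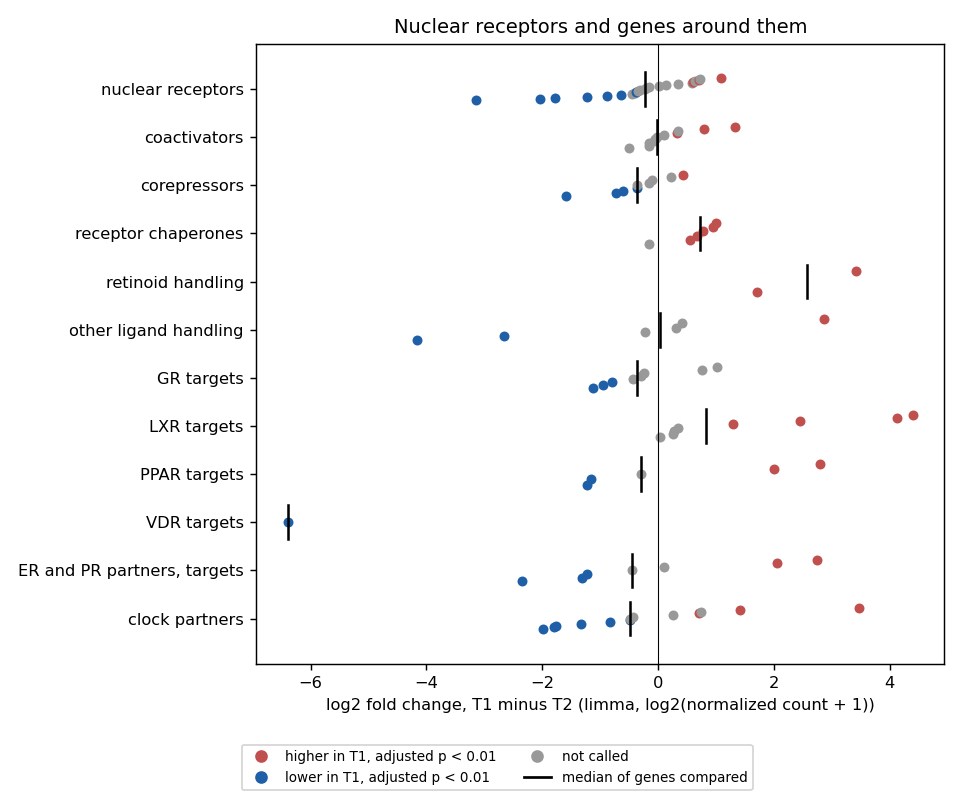
Log2 fold change (T1 minus T2) of the compared receptors and of the compared genes of each list, coloured by call at an adjusted p-value under 0.01, with black lines at list medians. The called chaperones, coactivators and LXR targets lie to the right of 0 and the called GR targets to the left, while PPAR targets, ER and PR partners and clock partners hold calls on both sides. The points of Cyp24a1 (VDR targets) and Abcg1 (the highest of the LXR targets) rest on almost no reads in 1 population, and their distance from 0 depends on the pseudocount.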

How the data were processed

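RNA from 3 T1 and 3 T2 samples, grouped by their labels, was sequenced as paired poly(A) libraries on a HiSeqX. The authors trimmed reads with Trimmomatic, aligned them to mm10 with TopHat2, counted them with HTSeq and applied DESeq2 median-of-ratios normalization. Versions, annotation and strand setting are not given in the sources used here. The deposited signal is thus a read count over 1 size factor per library, and whole reads were recovered for 100% of values (tolerance 0.01 reads). All value columns were used (0 left out).

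Coordinates and exonic lengths came from GENCODE vM21 (GRCm38, the sequence of mm10), in which all 46 members matched. Promoter windows came from RefSeq (GRCm38.p6), in which 42 matched. As deposited, 27 names read as dates and were not used as gene names, and the listed gene Sts was not found.

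The test was limma 3.58.1 (R 4.3.3) with a variance trend and Benjamini-Hochberg adjustment over 11514 genes. Its log scale with a pseudocount of 1 shrinks the fold changes of scarce genes. The thresholds (0.01 for the adjusted p-value, 2 for the absolute log2 fold change) are those of the study. On simulated data for this comparison limma found 200 of 200 changed genes and called 5 others among 11462 genes. Every changed gene was given an absolute log2 change of at least 3. The simulation therefore does not show how often smaller differences are found, and 18 of the 23 compared receptors were under 1 in absolute value. Replicates differed by more than sampling noise (chi-square per degree of freedom 7.96 to 25.0). Intervals of log2 fold changes came from the limma fit and so rest on the spread between replicates. The counting interval of the Cyp24a1 read ratio and the floors (3 reads) cover counting error only. Alternatives were edgeR 4.0.16 and DESeq2 1.42.0 on recovered reads, pseudocounts of 0.5 and 5, quantile normalization, no low-count filter or a minimum of 50, no variance trend, wider filters, a replicate block and leaving out each library.

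The members, lists and motifs were chosen with earlier results of these data known, and the immediate-early genes after their values were seen. Members called are named with every library's value, others with ranges or reads. Of each list, genes past both filters are named, and otherwise up to 4 called genes with the largest fold changes. Some listed genes are counted but not reported here by name.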

Additional observations from a re-analysis of the deposited data

How the results depend on the processing

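Of 343 alternative values for the 23 compared receptors, 322 stayed on their side of the threshold, 14 lost the call and 7 gained it. Direction changed only for Rarg, which was not called, without T1 replicate 3 (-0.02) or T2 replicate 1 (-0.02). At wider thresholds (0.05 for the adjusted p-value, 1 for the log2 fold change) 2445 genes passed, of which T1 cells had more of 1135 and less of 1310, and so did 5 receptors (Esr2, Nr2f1, Nr2f2, Nr4a2 and Rara). Without the variance trend 1 receptor (Nr2f1) passed both filters, with limma adjusted p-values of 0.0205 for Nr4a2 and 0.0286 for Nr4a1. With each library left out in turn, 925 to 975 genes and 1 to 3 receptors passed both filters, 7 to 12 receptors passed the adjusted p-value, and 40 to 42 genes of the lists did. Nr4a2 did not pass both filters without T1 replicate 1 (limma adjusted p-value 0.0118), T1 replicate 3 or T2 replicate 2, and Esr2 lost its call without T2 replicate 3 (0.0108). Nr4a1 lost its call without T1 replicate 1, T1 replicate 3 or T2 replicate 1 (highest 0.0267). Without T1 replicate 3, Rxra, Rxrb and Nr1h2 gained a call, and so did Nr2c2 without T2 replicate 1. DESeq2 called 11 receptors, the 10 of limma and Rxra (0.00734), and edgeR called the same 10. With no filter on low counts Thra lost its call (0.0117) and 3 receptors passed both filters, the addition being Nr1h4. A mean of at least 50 left Esr2, Nr1h3 and other scarce genes without a value. Scalings moved the median of all genes to between -0.0055 and 0.0006.

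Same-numbered replicates deviated together only weakly (correlations of 0.0575, 0.172 and 0.104). Each T1 replicate correlated best with the T2 replicate of its own number. From the T2 side, replicate 1 correlated best with T1 replicate 3 and the others with their own number. The labels do not say whether equal numbers share a culture or day, so the numbers were not taken as pairs. With the replicate number as a block 967 genes passed both filters, and 10 receptors were called, 9 of them shared, with Thra lost (limma adjusted p-value 0.0143) and Nr2c2 gained (0.00718). In the block fit the limma adjusted p-values of Nr4a2 and Nr4a1 were smaller than without the block, at 6.24e-05 and 0.000745. The causes of these changes were not tested.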
